A study of Mus musculus with 8 samples.

Results

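The genes described here encode the relay that carries signals from G protein-coupled receptors to cyclic AMP and protein kinase A (PKA): heterotrimeric G protein subunits, adenylyl cyclases, PKA subunits, the A-kinase anchoring proteins (AKAPs) and the regulators of G protein signalling (RGS). They were taken from the deposited count table by symbol alone: every protein-coding row named Adcy, Gng, Gngt, Akap or Rgs followed by a digit, Gna followed by letters or digits, Gnb1 to Gnb5, Prkar, Prkaca or Prkacb. The rule found 89 of 56884 genes: 16 Gα, 5 Gβ and 14 Gγ subunits, 10 adenylyl cyclases, 2 catalytic and 4 regulatory PKA subunits, 15 AKAPs and 23 RGS family genes, the last including Rgs7bp and Rgs9bp, which encode binding partners of RGS proteins. RNA was sequenced from cultures of Lacun3, a mouse lung adenocarcinoma cell line, either parental (labelled STK11 WT, n = 4) or Stk11 knockout made with CRISPR (labelled STK11 KO, n = 4). Both groups were grown alike in serum-containing medium, received no treatment and were described by the submitters as biological replicates. The labels give 1 line per genotype, and the sources used here do not say whether the knockout line was a single clone. An effect of the Stk11 knockout therefore cannot be told apart from other differences between the lines.

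As background, a receptor that has bound its ligand makes the Gα subunit exchange GDP for GTP, and Gα and the Gβγ dimer then act on separate effectors. Gαs stimulates adenylyl cyclases, the Gαi group restrains them, and the Gαq and Gα12 groups act on phospholipase C-β and on guanine nucleotide exchange factors. Cyclic AMP releases the catalytic subunits of PKA from their regulatory subunits, AKAPs hold PKA at particular sites in the cell, and RGS proteins speed up GTP hydrolysis by Gα. Stk11 encodes LKB1, a kinase upstream of the salt-inducible kinases, which PKA phosphorylates and inhibits, so that both pathways meet at the CREB coactivators.

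Library sizes were 18837263 to 21101904 counts in the parental and 21441601 to 25715008 counts in the knockout group, and 1 count was worth 0.0388 to 0.0515 CPM (counts scaled to a common library size by TMM). Stk11 itself was at 64.7 to 68.4 CPM in parental and 33.5 to 35.4 CPM in knockout libraries, so its mRNA was lower in every knockout library but remained present. Of 8 epithelial markers 6 were above 1 CPM in both groups, with summed levels of 9310 to 9790 CPM in parental and 8010 to 8960 CPM in knockout libraries. Among them Krt7 fell 3.72-fold (edgeR adjusted p = 2.01e-16), Krt18 and Epcam fell, and Krt19 rose. Krt8, at 2963 and 2720 CPM on average, and Cdh1, at 151 and 153 CPM, did not pass. The mesenchymal marker Vim rose from 4482 to 5920 CPM. It made up nearly all of the sum over the 7 mesenchymal markers, which was 4410 to 4560 and 5310 to 6670 CPM. The other tested genes of this list fell, Col1a1 from 3.68 to 2.32 CPM (edgeR adjusted p = 0.00178) and Col3a1 from 0.883 to 0.0345 CPM (7.63e-08). Of 8 alveolar type 2 markers Abca3 (107 and 110 CPM on average) and Napsa (1.32 and 1.07 CPM) were above 1 CPM, Sftpa1 and Sftpc had 0 counts and Nkx2-1 was close to 0. Of the 8 haematopoietic markers none reached 1 CPM on average, with summed levels of 0.333 to 0.67 CPM in parental and 0.188 to 0.644 CPM in knockout libraries. Of the 6 endothelial markers only Cdh5 did, and it rose from 1.36 to 4.17 CPM (adjusted p = 1.89e-07). The part of these marker differences in the results below was not tested. Pairs of libraries of one group gave chi-square values of 3.29 to 20.7 for each degree of freedom, and the values of 14.2 and more all involved knockout replicate 3. Where a count of members or listed genes below differed without that library, the other count is given beside it.

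The share of these genes that changed was near that of all genes tested, and the changes went in both directions within most families. Of the 89 genes, 48 had enough counts to be tested. In the knockout 17 of these rose and 18 fell at an adjusted p under 0.05 (edgeR quasi-likelihood test, adjusted over all 13707 tested genes), a share of 72.9% beside 68% of all tested genes, of which 34.4% rose and 33.6% fell. Without knockout replicate 3, 17 rose and 22 fell of 49 tested, 79.6% beside 69.3% of all genes tested without it. Of the genes that passed, 4 rose and 4 fell by at least 2-fold, 16.7% of the tested members beside 16.4% of all tested genes, of which 7.02% rose and 9.41% fell that far; without that library 4 rose and 6 fell, 20.4% beside 17.5%. The values of the groups did not overlap for 34 of the 48 genes, 70.8% beside 60.6% of all tested genes, and without that library for 38 of 49, 77.6% beside 66.9%. The median log2 fold change was -0.05 beside 0.01 over all tested genes, and the median absolute value 0.47 beside 0.37. All 4 tested Gβ, all 6 tested Gγ and all 4 PKA regulatory genes changed, with members moving in both directions in each of these families, while neither PKA catalytic gene passed. In bulk RNA, a change in the number of cells that express a gene and a change in RNA per cell cannot be told apart.

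**Figure D1:**
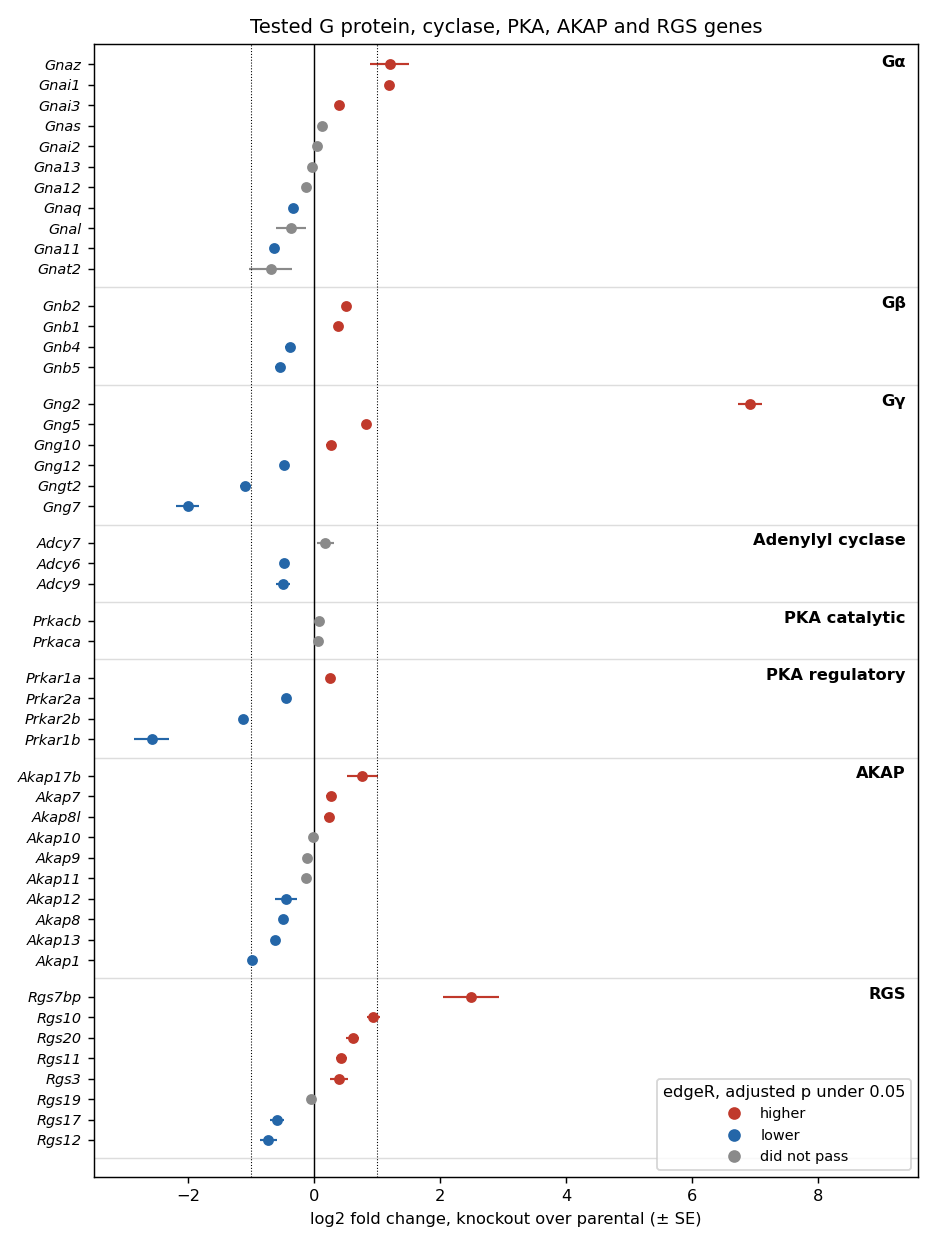
Log2 fold change of the 48 tested genes, knockout over parental, with the standard error as a horizontal bar and colour showing the result of the edgeR test; dotted lines mark 2-fold changes. Gng2 lies far from the rest at 6.92, the next highest is Rgs7bp at 2.49 and the lowest is Prkar1b at -2.58.

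Of the 16 Gα genes 11 were tested: Gnai1, Gnai3 and Gnaz rose, Gna11 and Gnaq fell, and 6 did not pass, among them Gnai2 and Gnas. Without knockout replicate 3, 4 rose and 3 fell. Gnai1, an inhibitory subunit (ENSMUSG00000057614.7, chromosome 5, 18470133 to 18565353, minus strand, GRCm39), was at 26.0, 29.6, 27.6 and 27.1 CPM in the parental libraries and at 65.9, 63.0, 61.7 and 60.2 CPM in the knockout libraries. The knockout values lay more than 30 CPM above the highest parental value, and the log2 fold change was 1.19 ± 0.06 (SE; edgeR adjusted p = 1.42e-13). Gnai3, a second inhibitory subunit, rose from 166 ± 6.70 to 219 ± 15.9 CPM (SD, n = 4), a log2 fold change of 0.40 ± 0.06. Gnai2, the third, was at 636 ± 8.37 and 658 ± 51.7 CPM and did not pass (log2 fold change 0.05 with a 95% interval of -0.07 to 0.17); knockout replicate 1, at 729 CPM, was the highest library and knockout replicate 3, at 606 CPM, the lowest. Gnaz, which encodes the related Gαz, rose at a low level, from 0.432 ± 0.0845 to 1.00 ± 0.169 CPM (log2 fold change 1.197 ± 0.30, adjusted p = 0.00139).

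Gnas, the gene of the stimulatory subunit, had values of 993 to 1023 CPM in parental and 1054 to 1191 CPM in knockout libraries. The groups did not overlap, but the log2 fold change of 0.12 ± 0.06 (SE) had an edgeR adjusted p of 0.0599 and an interval of 0.01 to 0.24 on the log2 scale. It passed as higher with DESeq2 (adjusted p = 0.0406), with limma-voom (0.0467), with limma on the deposited values (0.0436), without a filter on low counts (0.048) and without knockout replicate 3 (0.0119). It did not pass in edgeR with DESeq2 size factors (adjusted p = 0.0858), upper-quartile scaling (0.0789) or a filter at 1 CPM in 4 libraries (0.0694). Scaled by library size alone, its log2 fold change was 0.037 (edgeR adjusted p = 0.506). The Gnas locus holds several promoters and overlapping imprinted transcripts, and the counts cover the gene as a whole. Gna11 and Gnaq, the subunits that activate phospholipase C-β, both fell: Gna11 from 113 ± 4.75 to 73.2 ± 1.97 CPM (log2 fold change -0.63 ± 0.05, adjusted p = 4.57e-10) and Gnaq from 62.9 ± 2.25 to 49.96 ± 6.997 CPM (-0.33 ± 0.08, adjusted p = 0.000614). Gnaq was at 43.2 and 44.8 CPM in knockout replicates 1 and 2 and at 57.1 and 54.7 CPM in replicates 3 and 4, all below the lowest parental value of 60.02 CPM. Of the Gα12 group, Gna13 was at 111 ± 6.46 and 108 ± 4.28 CPM and Gna12 at 45.2 ± 2.24 and 41.1 ± 1.55 CPM; neither passed (adjusted p = 0.546 and 0.0547). Gna12 passed as lower with DESeq2 (adjusted p = 0.0466) and in several other settings. It overlaps Amz1 on the other strand over 3032 bp, and Amz1 had a log2 fold change of 2.37. Gnal and Gnat2, the subunits known from olfactory neurons and cone photoreceptors, were low and did not pass; each passed as lower without parental replicate 2 (adjusted p = 0.0113 and 0.0309), and Gnat2 also without knockout replicate 2 (0.0367).

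To compare levels between genes, CPM was divided by the length of the merged exons of each gene in kilobases, and each gene's share of its family was taken from these length-scaled values. On this scale Gnai2 made up 43.4% ± 0.0822 of Gα in parental and 41.9% ± 1.14 in knockout libraries (SD, n = 4), Gnas 23.3% ± 0.193 and 23.6% ± 0.459, and Gnai3 13.2% ± 0.390 and 16.2% ± 0.939. Gnai1 went from 2.27% ± 0.123 to 4.82% ± 0.163 and Gna11 from 7.14% ± 0.228 to 4.31% ± 0.106, and for both the shares of the groups did not overlap. These shares are descriptions without a test. They depend on which exons are used in each cell. The order of Gnai2 and Gnas rests on this scaling, with summed exon lengths of 3779 and 11186 bp. By CPM alone Gnas, at 1009 and 1098 on average, was above Gnai2, at 636 and 658.

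**Figure D2:**
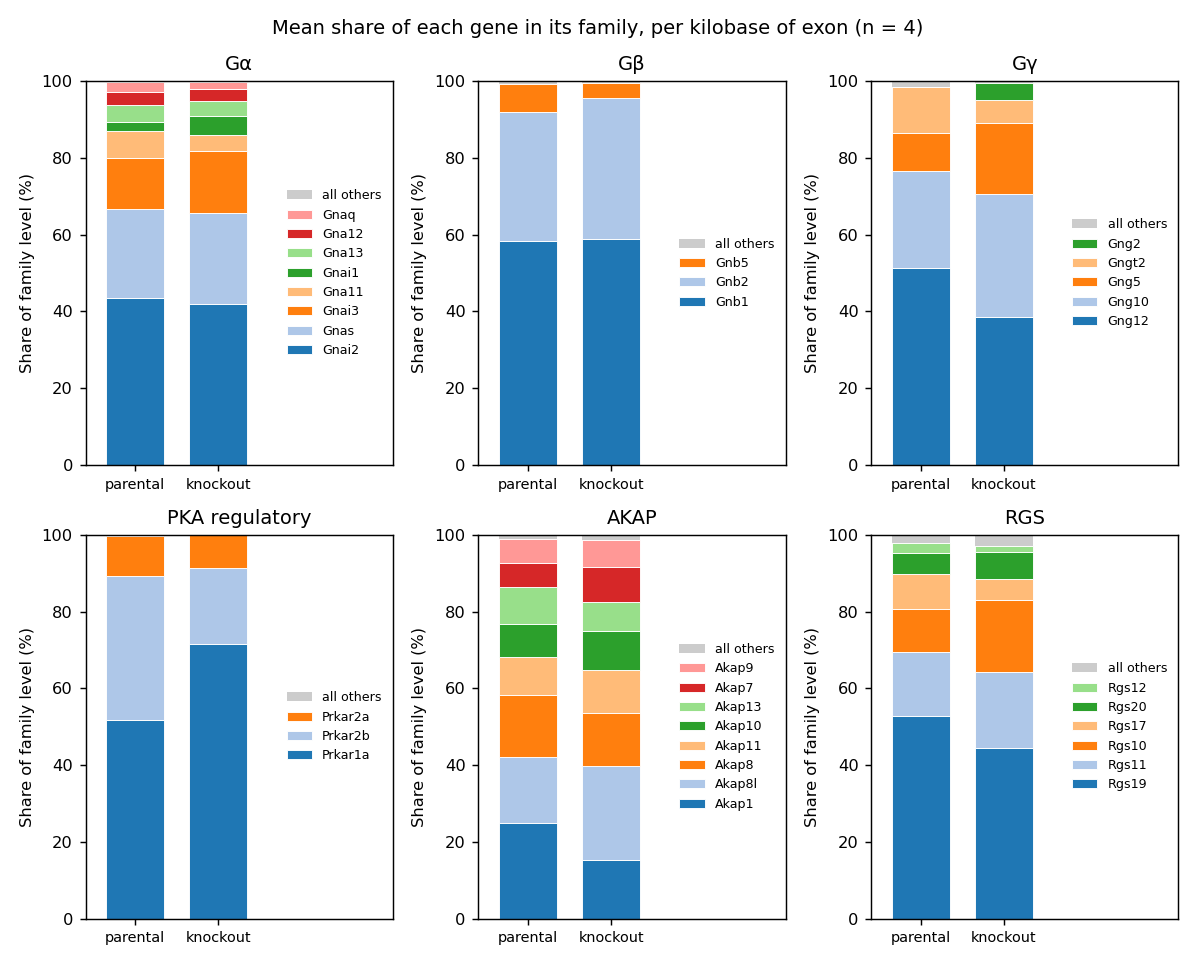
Mean share of each gene in the summed length-scaled level of its family (vertical axis, percent) in parental and knockout libraries, n = 4 each; genes under 2% in both groups are pooled as all others, and Gng5c and Gng14, for which no length was found, are left out. Prkar1a takes 51.8% and 71.4% of the PKA regulatory bar, and Gng12 51.3% and 38.7% of the Gγ bar.

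Of the 4 tested Gβ genes 2 rose and 2 fell. Gnb1 rose from 620 ± 15.9 to 804 ± 19.2 CPM (SD, n = 4; log2 fold change 0.38 ± 0.05, SE) and Gnb2 from 284 ± 3.62 to 402 ± 27.4 CPM (0.50 ± 0.06). These are the most abundant Gβ genes, at 58.3% and 33.5% of the length-scaled family level in parental and 58.8% and 36.8% in knockout libraries. Gnb4 fell from 22.5 ± 1.24 to 17.3 ± 1.65 CPM (-0.38 ± 0.08). Gnb5, which encodes the divergent Gβ that pairs with RGS proteins of the R7 group in place of a Gγ, fell from 57.9 ± 1.72 to 39.6 ± 4.68 CPM (-0.55 ± 0.07), and its share of Gβ from 7.46% ± 0.165 to 3.96% ± 0.320. All 4 passed, the weakest being Gnb4 (edgeR adjusted p = 0.000313). Gnb3 had 1 count in each group and was not tested.

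The largest change of any member was in Gng2, a Gγ subunit found in many cell types (ENSMUSG00000043004.14, chromosome 14, 19922627 to 20027695, minus strand, GRCm39). Its parental values were 0.191, 0.185, 0.0917 and 0.206 CPM, from 14 counts in all, and its knockout values 21.1, 20.97, 19.03 and 22.8 CPM, from 1851 counts. The knockout libraries lay close together, and every parental library was near the level of a few counts. Scaled for library size, the knockout held 125 times the parental counts, with an exact 95% counting interval of 74.2 to 229, and the fitted log2 fold change was 6.92 ± 0.19 (SE; edgeR adjusted p = 1.08e-18). On the length-scaled measure Gng2 nonetheless stayed a minor Gγ gene in the knockout, at 4.41% ± 0.285 of the family after 0.0336% ± 0.0100 in the parental cells. The 200 bases before its RefSeq start (GRCm38.p6, minus strand, chr14:19976694-19976893) are shown because this gene changed most. The cyclic AMP response element (CRE), TGACGTCA, and its core TGACG were searched on both strands in this window and in those below, and neither occurs here.

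Gng2: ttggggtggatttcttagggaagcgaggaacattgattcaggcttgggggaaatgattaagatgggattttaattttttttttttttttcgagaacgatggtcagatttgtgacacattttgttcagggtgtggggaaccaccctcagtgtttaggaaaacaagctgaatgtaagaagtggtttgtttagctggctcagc

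The other Gγ genes moved by less, and against each other. Gng5, a widely expressed subunit, was at 31.1, 29.5, 30.6 and 33.5 CPM in parental and 57.6, 56.1, 52.9 and 55.2 CPM in knockout libraries, with no overlap (log2 fold change 0.83 ± 0.06, SE; edgeR adjusted p = 6.65e-11). Gng10 rose from 37.8 ± 1.52 to 45.5 ± 5.23 CPM (SD, n = 4; 0.27 ± 0.07, adjusted p = 0.00287). Gng12, the most abundant Gγ gene per length in both groups, fell from 276 ± 5.18 to 198 ± 8.32 CPM (-0.48 ± 0.05), and its share of the family from 51.3% ± 0.807 to 38.7% ± 1.73. Among the others, Gng5 went from 9.90% ± 0.480 to 18.6% ± 1.23 and Gng10 from 25.2% ± 0.844 to 31.9% ± 2.07. Gng7, known best from striatal neurons, was at 4.33, 5.61, 3.99 and 5.20 CPM in parental and 1.19, 1.27, 1.09 and 1.2 CPM in knockout libraries, a 4.02-fold fall (log2 fold change -2.01 ± 0.18, adjusted p = 1.81e-09). Gngt2, the cone transducin γ subunit, fell from 25.9 ± 1.46 to 12.1 ± 1.12 CPM (-1.09 ± 0.08, adjusted p = 9.52e-11). Gngt2 overlaps Abi3 on the other strand over 5261 bp; Abi3 had a log2 fold change of -1.08, and since no source used here states the strand setting of the counting, reads of these genes may have been mixed.

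**Figure D3:**
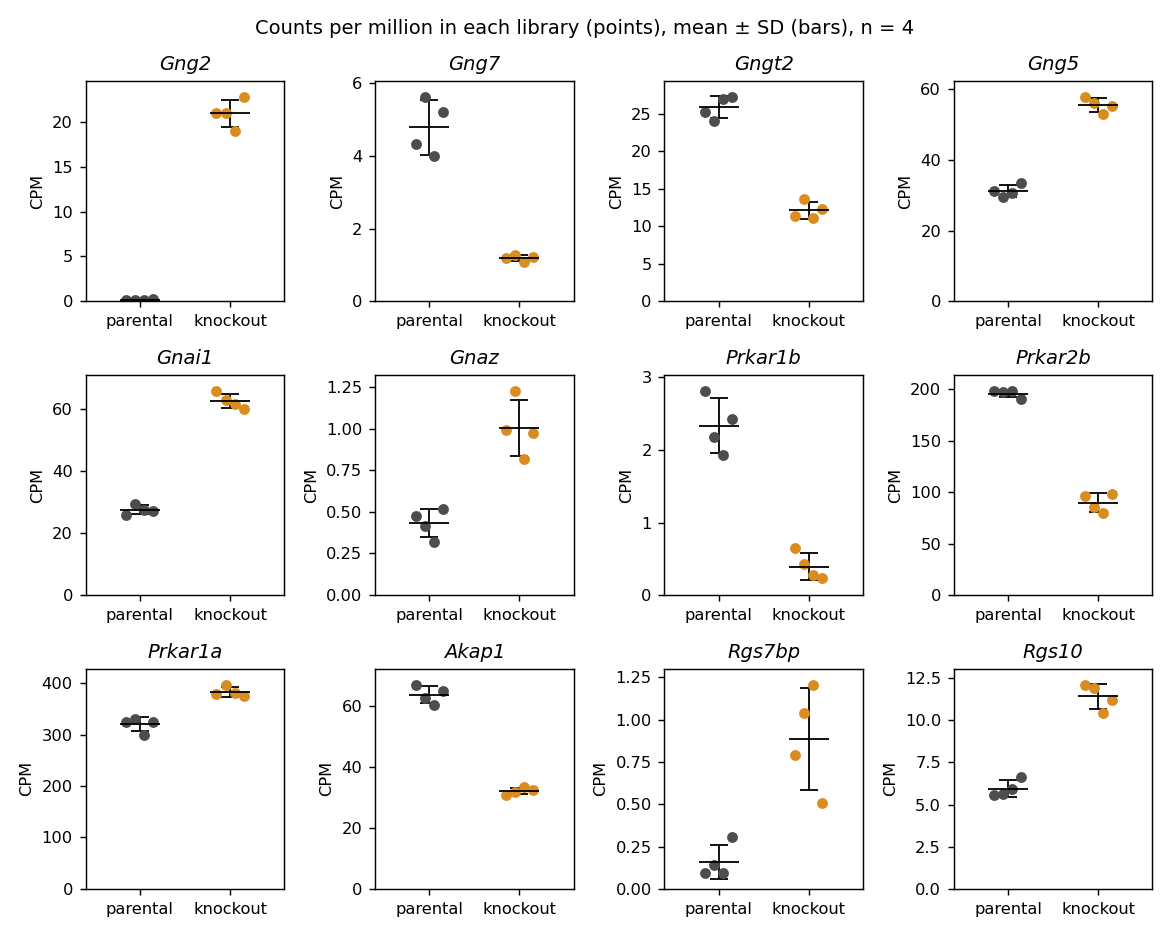
Levels in CPM (vertical axes, each starting at 0) of 12 members in each of the 4 parental and 4 knockout libraries; points are libraries and bars the mean ± SD. All 12 are members that passed, and their groups do not overlap, as for 60.6% of all tested genes. The panel of Gng2 goes from at most 0.206 CPM to at least 19.03 CPM.

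Of the 10 adenylyl cyclases, which make cyclic AMP, 3 were tested, 2 fell and none rose. Adcy6, a calcium-inhibited cyclase, was at 95.9, 98.2, 101 and 88.7 CPM in parental and 77.0, 64.8, 66.4 and 66.6 CPM in knockout libraries. All knockout values were lower, with knockout replicate 1 nearest to the parental range, and the log2 fold change was -0.48 ± 0.06 (SE; edgeR adjusted p = 4.13e-07). Adcy9 fell from 10.4 ± 0.699 to 7.35 ± 0.749 CPM (SD, n = 4; -0.50 ± 0.11, adjusted p = 0.000278). Adcy7 was at 4.81 ± 0.538 and 5.45 ± 0.462 CPM with overlapping groups (0.18, interval -0.09 to 0.45; adjusted p = 0.228). Per length Adcy6 was the main cyclase in both groups, at 83.8% ± 0.621 and 81.5% ± 1.63 of the family. Adcy1, Adcy2 and Adcy8 had 0 counts, and Adcy3, Adcy4, Adcy5 and Adcy10 at most 37 counts over all libraries.

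Neither catalytic gene of PKA passed, while all 4 regulatory genes changed. Prkaca, the main catalytic subunit, was at 122 ± 2.76 and 126 ± 7.69 CPM (SD, n = 4) and Prkacb at 91.1 ± 3.08 and 96.4 ± 4.72 CPM. Their edgeR adjusted p were 0.391 and 0.193, and the 95% intervals of their log2 fold changes were -0.06 to 0.17 and -0.03 to 0.19. Both values turned slightly negative when libraries were scaled by their size alone, at -0.032 and -0.0038. Prkar1a, the type I regulatory subunit that is present in most cells, was at 325, 331, 300 and 324 CPM in parental and 379, 397, 381 and 375 CPM in knockout libraries (log2 fold change 0.26 ± 0.05, SE; adjusted p = 0.000136). The other 3 regulatory genes fell. Prkar2b, a type II subunit that anchors strongly to AKAPs (ENSMUSG00000002997.16, chromosome 12, 32008475 to 32111295, minus strand, GRCm39), was at 198, 197, 198 and 190 CPM in parental and 96.6, 85.3, 79.7 and 97.7 CPM in knockout libraries. The groups lay far apart and the parental libraries within 8 CPM of each other, for a 2.18-fold fall (log2 fold change -1.12 ± 0.06, adjusted p = 2.46e-13). Prkar2a, the other type II subunit, fell from 93.6 ± 3.54 to 68.5 ± 3.08 CPM (-0.45 ± 0.06, adjusted p = 1.89e-07). Prkar1b, a type I subunit best known from brain, had only 2.81, 2.18, 1.93 and 2.42 CPM in parental and 0.644, 0.424, 0.272 and 0.232 CPM in knockout libraries, a 5.996-fold fall from a low level (-2.58 ± 0.28, adjusted p = 3.58e-08).

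As shares of the length-scaled regulatory level, Prkar1a went from 51.8% ± 1.22 in parental to 71.4% ± 1.69 in knockout libraries (SD, n = 4) and Prkar2b from 37.5% ± 1.07 to 19.8% ± 1.78, while Prkar2a made up 10.3% ± 0.303 and 8.66% ± 0.501. The single libraries ranged from 50.1% to 52.9% and from 69.7% to 73.1% for Prkar1a, and from 36.7% to 39.0% and from 18.0% to 21.5% for Prkar2b. These shares do not depend on the scaling between libraries. Prkar1a and Prkar2b have exons of similar summed length, 4321 and 3652 bp.

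The promoter windows of the members bear on this pathway because CREB, a transcription factor phosphorylated by PKA, binds the CRE. RefSeq windows from 250 bases before to 50 after a gene's start (GRCm38.p6) were found for 69 of the 89 genes, 103 windows in all since some genes have several starts. The full CRE was in 2 of these windows (1.94%) beside 1.79% of all 32851 windows, and the core TGACG, which the full CRE contains, in 25 (24.3%) beside 20.8%. Both full matches were in overlapping windows of Prkar1a and are the same site. No window of the other regulatory genes held the full CRE, which is rare in all windows (1.79%). The core was in 1 of the windows of Prkar1b and in the window of Prkar2a. A link between these matches and the direction of change was not tested. Stretches with a match are shown for Prkar1a (chr11:109650889-109650918, plus strand), for Gnb1 as a gene that rose (chr4:155491300-155491359, plus strand), for Rgs7bp as the RGS family gene that rose most (chr13:105055072-105055131, minus strand) and for Gng7 as the Gγ gene that fell most (chr10:81001445-81001504, minus strand), 5′ to 3′ along the gene with the match in capitals, CGTCA being the core on the other strand. Such matches are descriptions of the letters and do not show a bound site.

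Prkar1a: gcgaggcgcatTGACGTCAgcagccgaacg
Gnb1: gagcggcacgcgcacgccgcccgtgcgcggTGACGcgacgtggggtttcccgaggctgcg
Rgs7bp: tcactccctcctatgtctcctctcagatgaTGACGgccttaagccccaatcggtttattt
Gng7: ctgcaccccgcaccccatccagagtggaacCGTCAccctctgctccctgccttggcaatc

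Split by result, the core was in 8 of 21 windows of members that rose (38.1%), in 5 of 24 windows of members that fell (20.8%) and in 7 of 22 windows of tested members that did not pass (31.8%). The share over all windows was 20.8%. The windows came from 14 genes that rose, 14 that fell and 11 that did not pass. Several of the windows with the core among members that rose were of Prkar1a, including its overlapping windows with the same full CRE. Windows of the same gene share sequence, so these counts are not independent and were not tested.

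Of the 15 AKAPs, 10 were tested, and 3 rose, 4 fell and 3 did not pass; without knockout replicate 3, 3 rose and 6 fell. Akap1, which anchors PKA at the outer mitochondrial membrane (ENSMUSG00000018428.16, chromosome 11, 88721618 to 88755412, minus strand, GRCm39), had the largest fall. It was at 67.1, 62.8, 60.5 and 65.2 CPM in parental and 31.0, 31.8, 33.4 and 32.4 CPM in knockout libraries, with all knockout values near 32 CPM (log2 fold change -0.99 ± 0.06, SE; edgeR adjusted p = 1.66e-12). Akap13, which is also a guanine nucleotide exchange factor, fell from 115 ± 6.91 to 74.7 ± 6.60 CPM (SD, n = 4; -0.62 ± 0.06) and Akap8, a nuclear anchor, from 81.2 ± 5.20 to 57.5 ± 2.03 CPM (-0.50 ± 0.06). Akap12, the scaffold gravin, fell from 2.91 ± 0.0828 to 2.13 ± 0.413 CPM (adjusted p = 0.0261), a call that was lost without parental replicate 1 or 4 (adjusted p = 0.0504 and 0.053) and without knockout replicate 2 or 4 (0.107 and 0.0586). Akap7, a small membrane-associated anchor, rose from 16.1 ± 0.801 to 19.3 ± 0.830 CPM (0.26 ± 0.08, adjusted p = 0.00478) and Akap8l, a relative of Akap8, from 50.4 ± 7.199 to 59.6 ± 4.45 CPM (adjusted p = 0.0135). Parental replicate 3, at 61.1 CPM, lay within the knockout range of Akap8l, and the call was lost without parental replicate 2 (adjusted p = 0.0556). Scaled by library size alone, neither Akap7 nor Akap8l passed (adjusted p = 0.0519 and 0.0994). Akap17b rose at a low level, from 1.03 ± 0.286 to 1.74 ± 0.354 CPM. The large scaffolds Akap9 and Akap11 and the mitochondrial anchor Akap10 did not pass, with log2 fold changes of -0.11, -0.13 and -0.02; without knockout replicate 3, Akap9 and Akap11 passed as lower (adjusted p = 0.014 and 0.016). Per length, Akap1 went from 25.0% ± 1.38 to 15.3% ± 0.429 of the AKAP level and Akap8l from 17.1% ± 2.12 to 24.5% ± 1.85.

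Of the 23 RGS family genes, 8 were tested, and 5 rose, 2 fell and 1 did not pass. Without knockout replicate 3, 9 were tested, 4 rose and 3 fell, the added gene being Rgs14 (edgeR adjusted p = 0.0249). Rgs7bp, which anchors complexes of R7 group RGS proteins and Gβ5 at the membrane, had the largest rise at a low level, from 13 counts in the parental to 80 in the knockout group. Its values were 0.0953, 0.139, 0.0917 and 0.309 CPM in parental and 0.793, 1.04, 1.204 and 0.510 CPM in knockout libraries, a ratio of 5.81 with a counting interval of 3.21 to 11.4 (log2 fold change 2.49 ± 0.44, SE; edgeR adjusted p = 3.02e-05). Of the R7 group itself Rgs11 was tested and rose from 21.7 ± 3.55 to 29.3 ± 0.614 CPM (SD, n = 4), a log2 fold change of 0.43 ± 0.09. Rgs6, Rgs7 and Rgs9 were too low to test. Rgs11 overlaps Arhgdig on the other strand over 4836 bp, and Arhgdig had a log2 fold change of 0.17. Rgs10, a small RGS protein acting on the Gαi group, was at 5.57, 5.65, 5.92 and 6.65 CPM in parental and 12.1, 11.9, 10.4 and 11.2 CPM in knockout libraries, with no overlap (0.94 ± 0.11, adjusted p = 5.72e-08). Rgs20, known for acting on Gαz, rose from 6.99 ± 0.525 to 10.7 ± 0.691 CPM (0.61 ± 0.10, adjusted p = 1.74e-05). Its relative Rgs17 fell from 23.2 ± 2.00 to 15.5 ± 2.94 CPM (-0.59 ± 0.11, adjusted p = 9.78e-05), and Rgs19, the third of this group and the most abundant RGS gene per length, was at 36.2 ± 0.486 and 34.9 ± 3.44 CPM and did not pass. Rgs12, a multidomain RGS protein, fell from 7.19 ± 0.929 to 4.32 ± 0.697 CPM (-0.73 ± 0.14). Rgs3 rose from 3.81 ± 0.367 to 4.97 ± 0.684 CPM with overlapping groups (adjusted p = 0.0202), and its call was lost without parental replicate 1 or 4 (adjusted p = 0.0626 and 0.0522), without knockout replicate 2 or 3 (0.055 and 0.0679) and with scaling by library size alone (0.0727).

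The remaining 41 members were not tested, 14 of them with 0 counts in all libraries and 27 with counts. Those with 0 counts were Adcy1, Adcy2, Adcy8, Akap4, Akap14, Gnat3, Gng11, Gngt1, Rgs1, Rgs6, Rgs13, Rgs18, Rgs21 and Rgs22. The others had at most 28 counts in any library: Adcy3, Adcy4, Adcy5 and Adcy10; Akap3, Akap5 and Akap6; Gna14, Gna15, Gnao1 and Gnat1; Gnb3; Gng3, Gng4, Gng5c, Gng8, Gng13 and Gng14; and Rgs2, Rgs4, Rgs5, Rgs7, Rgs8, Rgs9, Rgs9bp, Rgs14 and Rgs16. When all genes with at least 1 count were tested, 5 of these 27 passed, in a fit that called 38.1% of all 27134 genes. Rgs16, an RGS protein acting on the Gαi and Gαq groups, had 8 parental and 62 knockout counts, a ratio of 7.32 with a counting interval of 3.49 to 17.7 (edgeR without a filter, adjusted p = 5.21e-07). Knockout replicate 2, at 0.141 CPM, stood below the other knockout libraries and within the parental range. Gna14, of the Gαq group, had 9 and 62 counts, a ratio of 6.51 with an interval of 3.21 to 14.9 (adjusted p = 1.30e-06). The same fit called Adcy3 higher, with 9 and 28 counts, and Gna15 and Rgs14 lower, with 26 and 6 and with 41 and 19 counts (adjusted p = 0.038, 0.00619 and 0.036). Gng5c may share reads with its near copy Gng5. It also overlaps Mapk14 on the same strand over 618 bp, with 25 counts beside 11573 for Mapk14.

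Genes around this relay were listed by role to set the members in their pathway. The counts for each list stand beside 68% of all tested genes that passed, 34.4% higher and 33.6% lower. Without knockout replicate 3 the share of all tested genes was 69.3%. Most receptors that act through Gαs were silent or close to it: of 40 listed, 6 were tested, 4 rose and 2 fell. Without knockout replicate 3, 7 were tested, 4 rose and 1 fell. Gipr, the receptor of the gut hormone GIP, rose from 3.00 ± 1.34 to 19.7 ± 2.76 CPM (SD, n = 4; log2 fold change 2.696 ± 0.19, SE) and Adora2a, an adenosine receptor, from 4.14 ± 0.602 to 14.3 ± 3.52 CPM (1.78 ± 0.17). For Gipr the parental libraries were at 2.16 to 5.00 CPM and the knockout libraries at 15.8 to 21.9 CPM. In the opposite direction Ptger4, a prostaglandin E2 receptor, fell from 4.08 ± 0.710 to 0.529 ± 0.0451 CPM (-2.94 ± 0.23). The other genes of this list that rose were Calcrl, a receptor of the calcitonin family, and the orphan receptor gene Gpr3 (log2 fold changes 0.58 and 1.10).

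Of 6 tested receptor kinases and arrestins, which switch receptors off, 3 rose and 2 fell. Arrb1 rose from 115 ± 6.59 to 152 ± 8.38 CPM (SD, n = 4), while its relative Arrb2 fell from 47.7 ± 1.90 to 33.8 ± 1.39 CPM, and Grk6 rose from 50.8 ± 1.69 to 73.6 ± 1.66 CPM, while Grk5 fell from 8.41 ± 1.06 to 6.05 ± 0.731 CPM. Among 13 tested chaperones and other regulators of G proteins, 7 rose and 3 fell; Gpsm3 and Ccdc88a, which bind Gαi subunits, rose by log2 fold changes of 0.55 ± 0.06 and 0.51 ± 0.07 (SE), and Nucb1 and Nucb2, calcium-binding proteins, fell with -0.44 ± 0.06 and -0.51 ± 0.06. Of 6 tested PKA inhibitors and other cyclic AMP-related genes, 2 rose and 1 fell. Rapgef3, the exchange factor EPAC1, rose from 107 ± 10.0 to 125 ± 5.67 CPM. Prkx, a relative of the PKA catalytic subunits, rose from 44.7 ± 0.908 to 58.4 ± 3.74 CPM. The channel gene Hcn3 fell from 2.40 ± 0.742 to 0.942 ± 0.506 CPM. The PKA inhibitor genes Pkia and Pkig did not pass.

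Downstream of Gαq and the Gα12 group, 2 of 7 tested effectors rose and 3 fell. Arhgef25, an exchange factor activated by Gαq, fell from 44.1 ± 1.503 to 18.1 ± 2.69 CPM (SD, n = 4; log2 fold change -1.28 ± 0.08, SE; edgeR adjusted p = 6.63e-12). Arhgef11 rose (0.40 ± 0.07) and its relative Arhgef12 fell (-0.46 ± 0.05); Arhgef1 rose by 0.17 ± 0.05, a call lost with scaling by library size alone (adjusted p = 0.116). Of the 3 tested effectors of Gβγ, Prex1, a Rac exchange factor, rose from 0.215 ± 0.0971 to 4.44 ± 0.571 CPM (4.32 ± 0.27, adjusted p = 3.62e-12), with 0.0953 to 0.321 CPM in parental and 3.92 to 5.10 CPM in knockout libraries. Pik3r5, a regulatory subunit of the Gβγ-activated PI3-kinase γ, fell from 11.8 ± 0.744 to 5.89 ± 0.669 CPM (-1.004 ± 0.11), and Plcb3 did not pass. Of 10 tested PKA anchors with other names, 3 rose and 4 fell, with Acbd3 (0.57 ± 0.07) and Rdx (0.28 ± 0.05) higher and Msn (-0.39 ± 0.06) and Ezr (-0.37 ± 0.06) lower. The medians of the log2 fold changes were 0.84 for the receptors and 0.15 for the kinases and arrestins, beside 0.01 for all tested genes. They were 0.15 for the chaperones and regulators and 0.14 for the PKA inhibitors and other cyclic AMP-related genes. Both effector lists had -0.10, the value of Plcb3, which is in both lists, and the other anchors had -0.05.

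**Figure D4:**
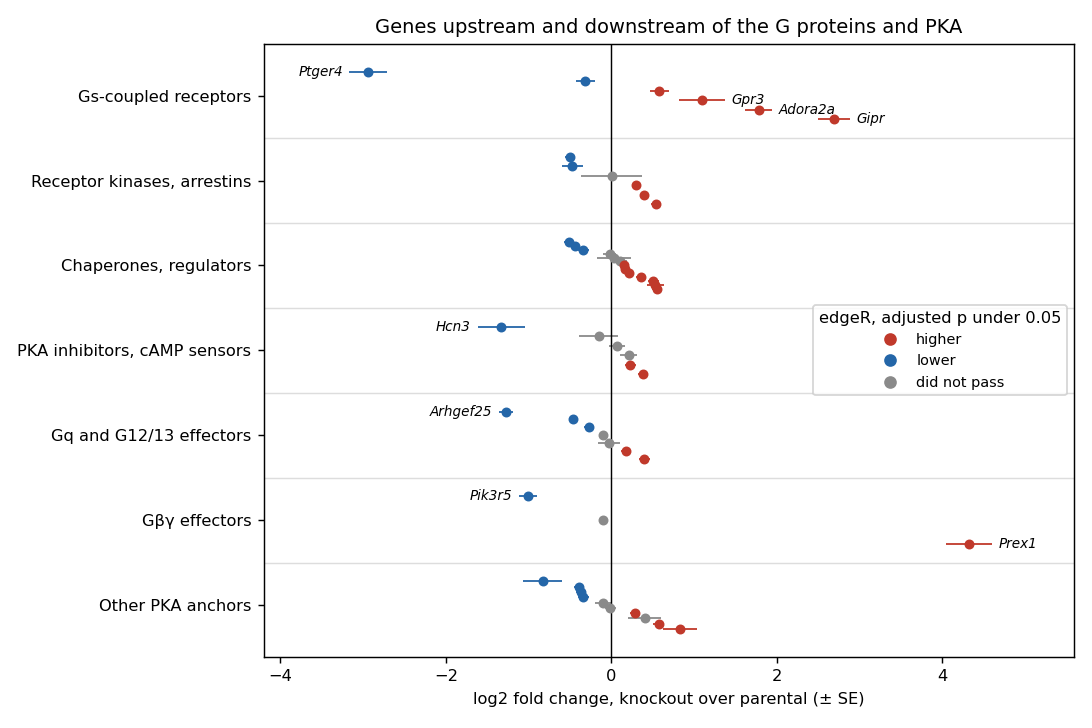
Log2 fold change, knockout over parental, of the tested genes in 7 lists around the G proteins and PKA, with the standard error as a bar and colour showing the result of the edgeR test. Each list holds genes on both sides of 0, and the labelled genes changed at least 2-fold, from Ptger4 at -2.94 to Prex1 at 4.32.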

How the data were processed

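Per the labels, RNA of 8 untreated Lacun3 cultures was made into stranded mRNA libraries. Per the submitters' processing notes, the build was GRCm39 and the tools were STAR 2.7.9a, featureCounts 1.6.0, FastQC 0.11.8, limma and edgeR, without roles. No source used here gives the strand setting or the treatment of multi-mapped reads. The authors deposited raw counts for 56884 genes and a second table of log2 CPM values in voom form.

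After filterByExpr, which left 13707 genes, and TMM scaling, the deposited counts were fitted by genotype alone with edgeR 4.0.16 in R 4.3.3 (quasi-likelihood, glmQLFit with robust estimation, glmQLFTest). P-values were Benjamini-Hochberg adjusted over these, and a gene rose or fell where this was under 0.05. The SE is the absolute log2 fold change over the square root of F. Exact (Clopper-Pearson) 95% intervals of count ratios cover counting error only. The labels call the samples biological replicates without saying what separates them. The p-values set the difference between the groups against the spread between these samples, which may be technical. Exon lengths for shares came from GENCODE M21 (GRCm38), added after the data were seen because the table has no lengths; promoters came from RefSeq (GRCm38.p6). No library was left out; Gng5c and Gng14 had no length and are in no share.

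Members and lists were chosen with earlier results of these data known. Named genes were members changed at least 2-fold at 1 CPM or more, main subunits whatever their result, and the members and listed genes with the smallest adjusted p in each direction; other genes were named after their values were seen, to account for every member. Alternatives were other scalings, filters and tests (DESeq2 1.42.0, limma 3.58.1), a replicate block and leaving out each library; counts by family and list without knockout replicate 3 were added after the data were seen. Of the steps, only the edgeR fit was tested on simulated counts, in which far fewer genes changed than passed here. The labels do not say whether replicate numbers pair libraries across genotypes. 1 gene of the receptor list is not reported here by name.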

Additional observations from a re-analysis of the deposited data

Results flagged for a closer look

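In 96 groups of 4 libraries, formed by the 48 tested genes and both genotypes, 6 had a library set apart from the other 3 by Dixon's test at 95%, where chance gives about 1 in 20. The gap to the nearest library as a share of the group's range was 0.855 for Adcy6 in knockout replicate 1 (77.0 CPM beside 64.8 to 66.6), 0.843 for Akap8l in parental replicate 3 (61.1 CPM beside 45.3 to 47.8) and 0.926 for Akap9 in parental replicate 2 (85.3 CPM beside 72.9 to 73.8). It was 0.867 for Gna12 in parental replicate 1 (41.9 CPM beside 46.0 to 46.6), 0.864 for Gnai2 in parental replicate 3 (624 CPM beside 639 to 642) and 0.842 for Prkar2b in parental replicate 4 (190 CPM beside 197 to 198).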

How the results depend on the processing

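Of the 35 members called, 29 kept their direction and their call in all 17 settings tried for single genes. Gnaz and Rgs7bp kept them in each setting that tested them, all but the filter at 1 CPM in 4 libraries, and 4 lost the call in at least 1 setting (Akap7, Akap8l, Akap12 and Rgs3). None of the 35 changed direction where tested. Of the 13 not called, 6 passed in at least 1 setting. Leaving out single libraries gave 17 to 19 members higher and 17 to 22 lower, and 21 to 24 listed pathway genes higher and 15 to 17 lower. In these fits 64.1% to 69.3% of all tested genes passed. Tested against a 2-fold change with glmTreat, 3 members were higher and 2 lower, and 3 listed genes were higher and 2 lower. That test called 9.86% of all tested genes. Scaling by library size alone moved the median of all genes by -0.08. It gave 14 members higher and 21 lower, in a fit that called 67.1% of all tested genes. The same scaling turned the log2 fold changes of Gnai2 to -0.039, Prkaca to -0.032 and Prkacb to -0.0038, none of which passed. Leaving out single libraries also carried 4 values across 0, none past the test: Gna13 ranged from -0.060 to 0.0013 (above 0 without parental replicate 3), and Akap10 from -0.045 to 0.018, Gnai2 from -0.0019 to 0.086 and Rgs19 from -0.086 to 0.016 (each across 0 without knockout replicate 1). With the replicate number as a block 17 members rose and 18 fell, in a fit that called 67% of all tested genes. Deviations from the group mean had correlations of -0.0985 to 0.0356 between libraries with the same number. Between libraries with different numbers they were -0.0913 to 0.102. With so few libraries these values cannot decide whether cultures with the same number shared a day or batch. About 0.05 CPM per count limits what can be said of the 41 untested members.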
